A study of Mus musculus with 2 samples.

Results

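The genes described here are the 7 that encode the RUNX transcription factors, their common partner and the ETO corepressors, namely Runx1, Runx2, Runx3, Cbfb, Cbfa2t2, Cbfa2t3 and Runx1t1. They were picked by name among the 43346 annotated genes measured, of which 21474 are protein-coding, and all 7 had a row in both gene tables. RNA came from G1E cells, an immortalised mouse line labelled as a Gata1- erythroid progenitor, and was sequenced as poly(A)-selected, single-end libraries. Both libraries belong to 1 group, carry the biological replicate numbers 1 and 2, and cite the same biosample, which the labels give as male, postnatal, with an age of 0 days. The labels list no treatment and no second genotype, so every value below describes 1 cell line, with the Gata1- label shared by both libraries. Nothing shows that the replicates were separate cultures, and the spread between them may be technical.

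RUNX proteins bind DNA through the Runt domain, and the partner CBFB, which binds no DNA itself, raises their affinity and protects them from degradation. Runx1 is required for the first blood stem cells to form and later acts in megakaryocytes, lymphocytes and myeloid cells; Runx2 is the regulator of bone formation, and Runx3 acts in T cells and sensory neurons. ETO proteins bind no DNA specifically and bring NCoR, SIN3 and histone deacetylases to other factors. Runx1t1 encodes ETO itself, the fusion partner of RUNX1 in acute myeloid leukaemia, Cbfa2t2 encodes MTGR1, and Cbfa2t3 encodes ETO2, the corepressor that sits with TAL1, LMO2 and LDB1 on erythroid genes.

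The totals were 31645051 expected counts in replicate 1 and 56983558 in replicate 2, with reads of 36 nt and 55 nt implied by the effective lengths. Of all TPM, 3.16% went to features under 200 nt in replicate 1 against 10.2% in replicate 2, which lowers every other TPM in replicate 2. Erythroid identity was checked on fixed markers: all 6 erythroid markers reached 1 TPM in both libraries, with summed levels of 975 and 2226 TPM, and 4 of 5 megakaryocyte markers did, with sums of 52.4 and 55.6 TPM. That level was reached in both libraries by 42.5% of all protein-coding genes. Gata1 RNA itself was measured, with 88.2 TPM in the first library and 61.4 TPM in the second, and where the gene is altered is not in the labels.

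G1E cells held RNA of 1 RUNX factor, its partner and 2 ETO corepressors. Runx1, Cbfb, Cbfa2t2 and Cbfa2t3 reached 1 TPM in both libraries, which makes 4 of 7 members against 42.5% of all protein-coding genes. TPM counts reads per unit of transcript length, so levels of different genes can be set side by side. Cbfa2t3 led in both libraries and Runx2, Runx3 and Runx1t1 came last in both. The middle of the order changed: Runx1 stood above Cbfb in replicate 1, and the 2 lay next to each other in replicate 2. In bulk RNA, fewer cells with a transcript and less of it per cell cannot be told apart.

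**Figure D1:**
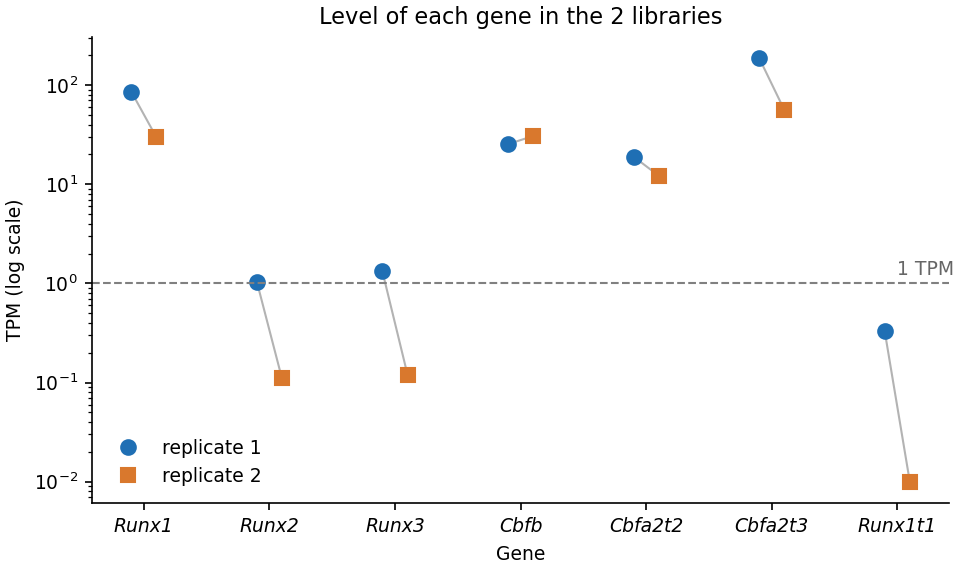
Level of each gene in TPM on a log axis, 1 point per library (circles, replicate 1; squares, replicate 2), joined by a line that only links the 2 libraries of a gene; the dashed line marks 1 TPM. Cbfa2t3, Runx1, Cbfb and Cbfa2t2 lie above 10 TPM in both libraries, and the other 3 genes fall to 0.120 TPM or less in replicate 2.

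Runx1, on the minus strand of chr16:92601466-92826149 (mm10; ENSMUSG00000022952), was the RUNX factor of these cells. It stood at 86.0 TPM in replicate 1, from 4756 counts, and at 29.8 TPM in replicate 2, from 4189 counts. The mean was 57.9 ± 39.8 TPM (SD, n = 2). These levels lie above those of 92.3% and 82.4% of protein-coding genes. The deposited credibility intervals of TPM, 79.9 to 86.0 and 27.7 to 30.1, do not meet, although their level is not stated.

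Runx2 (chr17:44495987-44814797, minus strand; ENSMUSG00000039153) was measured at 1.04 TPM from 45 counts in replicate 1 and at 0.110 TPM from 2 counts in replicate 2. The exact 95% Poisson intervals of those counts are 32.8 to 60.2 and 0.242 to 7.22 and cover counting error only. Runx3 (chr4:135120652-135177990, plus strand; ENSMUSG00000070691) stood at 1.32 TPM from 119 counts (interval 98.6 to 142) and at 0.120 TPM from 4 counts (1.09 to 10.2). Both genes were thus near the 1 TPM threshold in replicate 1 and almost without reads in the deeper replicate 2. Of the RUNX family's TPM, Runx1 held 97.3% in replicate 1 and 99.2% in replicate 2, a mean of 98.3% ± 1.35 (SD, n = 2). Runx1 exceeded Runx2 by 5.10 ± 0.44 on the scale of log2(TPM + 1), as mean ± SD over 2 libraries; the added 1 understates ratios of low genes. Against Runx3 the log2(TPM + 1) differences were 5.23 in replicate 1 and 4.78 in replicate 2. Both differences pass a bound of 1.23, the 95% normal half-width that follows from the SD of 0.63 between libraries, pooled over 10469 expressed genes. Runx3 over Runx2, at 0.10 ± 0.12, does not pass it.

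Runx1t1 (chr4:13743436-13893649, plus strand; ENSMUSG00000006586), the gene of ETO, was the lowest member, with 0.330 TPM from 42 counts (30.3 to 56.8) in replicate 1 and 0.0100 TPM from 1 count (0.0253 to 5.57) in replicate 2. Its low reads share a pattern with those of Runx2 and Runx3: present in replicate 1, nearly gone in replicate 2. For reference, among the 10793 protein-coding genes with at most 10 counts in replicate 2, the median in replicate 1 was 0.0600 TPM and the 95th percentile 0.740 TPM. Runx3 lay above 98.2% of them in replicate 1, Runx2 above 97.2% and Runx1t1 above 84.2%.

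Markers of the tissues in which these 3 genes are known to act moved the same way. So did the median of all protein-coding genes, from 0.550 TPM in replicate 1 to 0.120 TPM in replicate 2. From replicate 1 to replicate 2, the sum of 5 osteoblast markers went from 2.23 to 0.150 TPM, that of 5 lymphoid markers from 2.88 to 0.180 TPM and that of 5 neural markers from 4.53 to 0.270 TPM. The 5 granulocyte and monocyte markers summed to 0.490 and 0.360 TPM. No gene of these lists reached 1 TPM in both libraries. Elavl4, Map2, Cd4, Cd8a, Ibsp and Col1a1 were listed at 0 TPM in replicate 2, and Elane had 0 counts in both, while all osteoblast, lymphoid and neural markers had reads in replicate 1. The part of such RNA in the replicate 1 levels of Runx2, Runx3 and Runx1t1 was not tested. No bone gene on the list of RUNX2 targets passed 1 TPM in both libraries (0 of 9, median 0.0300 TPM), against 42.5% of all protein-coding genes. Bglap, osteocalcin, led the list at 1.64 and 0.130 TPM.

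Runx1 has a pair of promoters, and in mouse development the proximal one is used first and the distal one in definitive blood stem cells. The RefSeq start sites lie 128745 nt apart, at position 92826074 (distal) and 92697329 (proximal) of chromosome 16. Proteins of Runx1-201 and Runx1-203 differ at their first residues. The first 30 coding bases of each are shown because the reading frames differ where they open, with the start codon in capitals:
Runx1-201, distal start: ATGgcttcagacagcatttttgagtcattt
Runx1-203, proximal start: ATGcgtatccccgtagatgccagcacgagc
The distal reading frame opens at position 92825646 and the proximal one at 92695753, both from the annotation. Runx1-201 codes for 465 residues in 8 exons and Runx1-203 for 451 residues in 6. The coding sequences share 1339 nt up to the stop codon and differ over the first 56 nt of the former and the first 14 nt of the latter, so the bases shown hold part of the former stretch and all of the latter.

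The 250 bases before each Runx1 start come from RefSeq on GRCm38.p6 and are read on the minus strand. They are shown because the transcripts below are grouped by start, and use of either promoter was not tested:
Runx1 distal, chr16:92826075-92826324: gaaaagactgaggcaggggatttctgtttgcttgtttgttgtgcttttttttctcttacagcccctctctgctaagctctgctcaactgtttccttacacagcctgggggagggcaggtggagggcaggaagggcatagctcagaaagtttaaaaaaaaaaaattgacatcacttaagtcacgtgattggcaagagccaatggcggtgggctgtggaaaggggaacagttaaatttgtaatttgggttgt
Runx1 proximal, chr16:92697330-92697579: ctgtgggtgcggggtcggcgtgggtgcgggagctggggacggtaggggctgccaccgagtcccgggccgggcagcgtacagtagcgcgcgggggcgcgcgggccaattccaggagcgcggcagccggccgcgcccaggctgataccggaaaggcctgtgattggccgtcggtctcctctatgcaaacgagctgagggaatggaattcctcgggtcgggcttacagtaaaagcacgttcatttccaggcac
Base composition separates them. The distal window has 45.6% G and C with 2 CpG dinucleotides, and the proximal window 67.6% with 27, against medians of 52.4% and 6 over 32851 promoter windows of this length. Both strands were searched for 5 short motifs. The RUNX motif, written TGTGGT, occurs in 14.0% of all windows. The GATA motif was searched as AGATAA and occurs in 9.99% of them. For ETS factors the letters GGAAGT were used, which 19.7% of windows hold. A GC box, GGGCGG, is in 32.7% of windows, and the E-box form searched, CAGCTG, is in 13.0%. Neither Runx1 window holds any of these letters, so no capitals appear in them.

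Transcripts grouped with the proximal start, of which Runx1-203 begins 1204 nt inside it, took most of the Runx1 signal. They held 89.4% of the gene's TPM in replicate 1 and 77.9% in replicate 2, and the distal-start transcripts 10.2% and 22.1%, a mean of 16.1% ± 8.39 (SD, n = 2). In absolute level the distal-start transcripts stood at 8.78 and 6.57 TPM, and the proximal-start ones at 76.9 and 23.2 TPM. The distal level was thus close in both libraries and the proximal level was not. Runx1-202, which begins at the proximal start itself, held 5.89% and 15.7%, less than the distal-start transcripts. Counted in reads, without the length correction, the distal share was 19.4% and 36.9%, since the distal mRNA is the longest.

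A single transcript carried most of the proximal share. Runx1-203, 1985 nt long, took 83.4% of the TPM in replicate 1 and 61.0% in replicate 2, followed by Runx1-201 (5861 nt) at 7.64% and 18.6% and Runx1-202 (4738 nt) at 5.89% and 15.7%. Runx1-203 has no sequence of its own: each of its 36-base words also lies in another Runx1 transcript, and it begins 1204 nt inside the proximal start. Its reads were therefore assigned to it by the authors' quantification model, from how reads spread over the shared exons, and its share was not tested on reads of its own. Of the 36-base words found in Runx1-201 alone, 75 begin in its first 2 exons and 2190 in its last exon, so most of the sequence that is its own lies near the 3′ end. Words held by distal-start transcripts alone number 4874, those held by proximal-start transcripts alone 3361 and those in both 3306.

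A second difference among the Runx1 messages lies inside the reading frame. Runx1-202 skips an exon of 192 nt (chr16:92644154-92644345), a multiple of 3, and codes for 387 residues. Among the 3 leading coding transcripts, Runx1-202 held 6.07% in replicate 1 and 16.5% in replicate 2 by TPM, and 11.8% and 24.6% by counts. These shares come from the quantification model, and skipping was not tested on reads that join the exons on either side. Runx1-202 also differs from Runx1-203 in its first and last exons, of 1845 and 2469 nt against 642 and 727 nt. Runx1-202 has 38 words of its own. The remaining Runx1 transcripts each held less than 5% of the gene's TPM in either library.

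**Figure D2:**
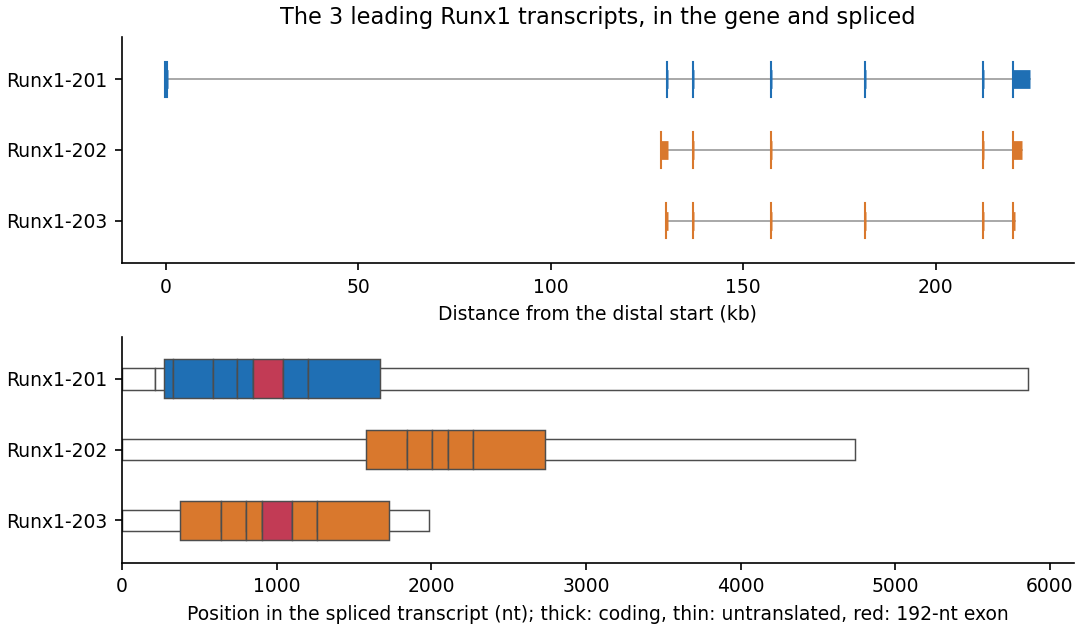
Upper panel: exons of the 3 leading Runx1 transcripts by distance from the distal start in kilobases (blue, distal start; orange, proximal start). Lower panel: the same transcripts spliced, in nt, with coding parts thick, untranslated parts thin and the 192-nt exon in red, which Runx1-202 lacks; Runx1-203 is contained in exons that Runx1-201 and Runx1-202 also have.

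Cbfb (chr8:105170674-105217989, plus strand; ENSMUSG00000031885) stood at 25.4 TPM from 1396 counts in replicate 1 and at 30.6 TPM from 3672 counts in replicate 2. Its mean of 28.0 ± 3.70 TPM (SD, n = 2) had the smallest SD relative to its mean among the 7 genes. None of its 36-base words occurs in the transcripts of another gene. In replicate 1 the summed RUNX factors exceeded their partner, with 88.4 TPM and a 3.48-fold ratio to Cbfb. In replicate 2 the sum was 30.0 TPM and the ratio 0.980. As log2 of Cbfb over the RUNX sum, the values were -1.80 and 0.03, a mean of -0.89 ± 1.29, which is within the spread between libraries. Without replicate 1 the sign is turned, at 0.03. Runx1 over Cbfb alone averaged 0.84 ± 1.25 in log2(TPM + 1), below the bound of 1.23.

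This ratio depends on which length each gene is given. TPM divides by the lengths of the transcripts the model chose, and for Runx1 that was mostly the short Runx1-203. Divided by the longest transcript instead, 5861 nt for Runx1 and 2883 nt for Cbfb, Runx1 over Cbfb became 1.68-fold in replicate 1 and 0.561-fold in replicate 2, and the mean log2 of Cbfb over the RUNX sum became 0.01.

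Cbfb messages differ at the end of their reading frame. Exon 5 ends at either of 2 splice donors, and the longer form keeps 31 more bases, which is no multiple of 3 and changes the frame behind it. The bases are shown because they set which C-terminus is made; the first 2, in capitals, are where the intron of the shorter form begins:
Cbfb-202, chr8:105202548-105202578, plus strand: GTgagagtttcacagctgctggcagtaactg
The last coding bases then differ, with the stop codon in capitals:
Cbfb-201, short exon 5: ggtggcggtgatgatctcaaacttcgtTAA
Cbfb-202, long exon 5: gtaactggcaagaagacagcaagacccTAG
Cbfb-201 codes for 187 residues and Cbfb-202 for 182. Cbfb-202 held 53.0% of the gene's TPM in replicate 1 and 76.0% in replicate 2, and Cbfb-201 held 28.2% and 15.3%. Of these 2 forms the long exon made up 65.2% and 83.3%, a mean of 74.2% ± 12.7 (SD, n = 2), and the share by counts was 73.9% ± 12.8. The longer exon led in both libraries. The forms are told apart by 64 and 23 words of 36 bases, so only reads over those words tell them apart. A pair of short non-coding models completed the list in replicate 1: Cbfb-207 with 10.2% and Cbfb-205 with 5.13%, against 0% as listed and 2.03% in replicate 2, and together they rest on 20 and 11 counts in replicate 1.

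Cbfa2t3, the gene of ETO2 (chr8:122625141-122699109, minus strand; ENSMUSG00000006362), was the highest of the 7 genes in both libraries. It stood at 188 TPM from 12468 counts in replicate 1 and at 56.4 TPM from 9972 counts in replicate 2, a mean of 122 ± 92.8 TPM (SD, n = 2). These levels exceed those of 96.6% and 89.5% of protein-coding genes. Cbfa2t2 (chr2:154436481-154539356, plus strand; ENSMUSG00000038533) stood at 19.0 TPM from 1061 counts and at 12.2 TPM from 1795 counts, a mean of 15.6 ± 4.84 TPM (SD, n = 2).

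Within the ETO family Cbfa2t3 held 90.7% of the TPM in replicate 1 and 82.2% in replicate 2, a mean of 86.4% ± 5.94 (SD, n = 2). It exceeded Cbfa2t2 by 9.87-fold and 4.64-fold, and by 2.68 ± 0.79 in log2(TPM + 1), past the bound. Per nt of the longest transcript the excess was larger, at 17.7-fold and 8.35-fold. Cbfa2t3 also exceeded Cbfb, by 1.85 ± 1.40, and Runx1 exceeded Cbfa2t2, by 1.67 ± 0.63. Both of these rest on replicate 1, since without it the differences were 0.86 and 1.22, short of the bound. Cbfa2t3 over Runx1, at 1.01 ± 0.15, and Cbfb over Cbfa2t2, at 0.83 ± 0.61, stayed within the bound although both had 1 sign in both libraries. For Cbfb over Cbfa2t2 the difference was 0.40 in replicate 1 and 1.26 in replicate 2, which alone would pass. In all, 15 of 21 pairs passed it, and 3 of the 6 pairs among the 4 expressed genes. No p-value goes with these differences, because an exact sign-flip test over 2 libraries cannot give less than 0.5.

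Cbfa2t3 too has a distal and a proximal start, whose windows of 250 bases are shown to set them beside those of Runx1. Letters that match a searched motif on either strand are in capitals, and the windows are read on the minus strand of GRCm38.p6 from RefSeq:
Cbfa2t3 distal, chr8:122699110-122699359: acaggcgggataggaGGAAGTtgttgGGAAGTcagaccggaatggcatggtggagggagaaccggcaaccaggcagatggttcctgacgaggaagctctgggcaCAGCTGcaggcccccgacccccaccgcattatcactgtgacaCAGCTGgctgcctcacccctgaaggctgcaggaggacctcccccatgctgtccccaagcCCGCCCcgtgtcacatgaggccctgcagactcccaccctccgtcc
Cbfa2t3 proximal, chr8:122678176-122678425: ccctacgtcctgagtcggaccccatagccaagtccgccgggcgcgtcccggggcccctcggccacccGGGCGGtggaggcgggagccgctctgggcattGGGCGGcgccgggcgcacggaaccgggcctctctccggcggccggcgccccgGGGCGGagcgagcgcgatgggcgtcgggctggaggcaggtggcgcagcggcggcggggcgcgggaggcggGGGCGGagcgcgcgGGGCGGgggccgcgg
The distal window has 64.0% G and C with 9 CpG and holds GGAAGT 2 times, CAGCTG 2 times and GGGCGG once, the last on the opposite strand. The proximal window has 83.2% with 43 CpG and holds 5 GC boxes. None of these matches overlaps another, and a match says only that the letters are there. As in Runx1, the proximal window of Cbfa2t3 is the richer one in CpG.

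In the assigned TPM the leading start was the opposite one, the distal. These shares come from the quantification model and were not tested on reads of the 295-nt first exon of Cbfa2t3-203. Cbfa2t3-203, which begins at the distal start and codes for 620 residues, held 63.3% of the gene's TPM in replicate 1 and 95.2% in replicate 2. All distal-start transcripts together held 63.9% and 96.7%, or 89.3% and 97.7% of the counts. Cbfa2t3-201, from the proximal start and with 559 residues, held 3.26% and 2.85%. The 2 reading frames open with different bases, start codon in capitals, and share their last 1556 coding nt:
Cbfa2t3-203, distal start: ATGtcccaggcatccaccaccactctggag
Cbfa2t3-201, proximal start: ATGccagactccccggctgaagtgaagacg
The first codons lie at positions 122698893 and 122650450 of chromosome 8.

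The gap in this share between the libraries went with 1 short model. Cbfa2t3-204, which begins near the proximal start, is 639 nt long and has 55 words of its own, and it was given 61.3 TPM from 865 counts in replicate 1 and 0.270 TPM from 7 counts in replicate 2. With it left out, Cbfa2t3-203 held 94.0% and 95.7% of the rest. Cbfa2t3-203 was quantified with a length of 4047 nt, while release M21 of the annotation gives it 7645 nt, so the added sequence was not part of the quantified transcript.

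Cbfa2t2 was spread over several messages, with 6 of its 9 transcripts at 5% or more in either library. Cbfa2t2-206 held 18.4% in replicate 1 and 26.3% in replicate 2, Cbfa2t2-203 14.3% and 26.7%, and Cbfa2t2-201, the full coding form of 594 residues, 11.4% and 25.3%. A retained-intron model of 381 nt, Cbfa2t2-205, took 46.3% and 13.1% from 71 and 24 counts. Transcripts of 1000 nt or less held 61.3% and 43.0% of the gene's TPM but 11.0% and 7.38% of its counts. From the longer transcripts alone Cbfa2t2 stood at 7.36 and 6.93 TPM, so its long mRNA was measured at nearly the same level in both libraries. The same sum gave 125 and 55.3 TPM for Cbfa2t3, 83.7 and 29.5 TPM for Runx1, and 20.6 and 28.8 TPM for Cbfb. Cbfa2t2 shares 608 of its 36-base words with its pseudogene Cbfa2t2-ps1, and its reads there may have been divided.

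**Figure D3:**
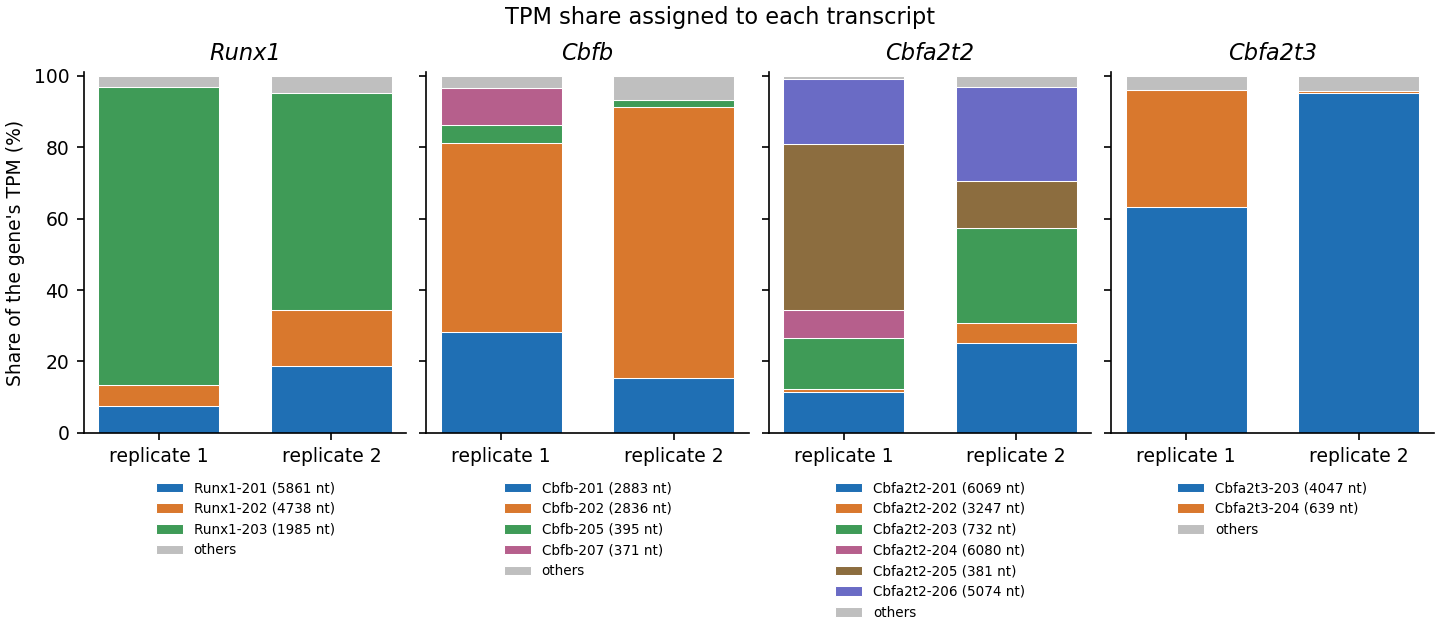
Share of each expressed gene's TPM given to its annotated transcripts, in percent, 1 bar per library; transcripts under 5% in both libraries are pooled in grey, and lengths in nt stand in the key. Runx1-203 leads Runx1, Cbfb-202 leads Cbfb and Cbfa2t3-203 leads Cbfa2t3 in both libraries, while the leader of Cbfa2t2 differs between them.

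Among the low genes, the few reads fell on a few models. Runx2-205, 440 nt long, held 65.6% of Runx2 TPM from 6 counts in replicate 1 and 100% from 2 counts in replicate 2, and Runx2-202 held 20.6% from 29 counts in replicate 1. All 119 Runx3 counts of replicate 1 were given to Runx3-201, which begins at the distal start. Of its 3849 words of 36 bases, 92 also occur in other genes, and which words the reads held was not tested. Runx1t1-201 received 41 of the 42 Runx1t1 counts of replicate 1. Over all 7 genes, 55 transcripts are annotated, 22 held 5% or more of their gene in either library, and 11 reached 1 TPM in both.

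Between the libraries, Runx1 and Cbfa2t3 were both higher in replicate 1 and Cbfb was not. Counts were scaled by TMM library sizes and compared as the log2 ratio of replicate 2 over replicate 1, for genes with 50 or more counts. The ratio was -1.23 for Cbfa2t3, a 2.34-fold higher level in replicate 1, and -1.09 for Runx1, 2.13-fold higher in replicate 1. It was 0.49 for Cbfb, 1.40-fold higher in replicate 2, and -0.15 for Cbfa2t2. Runx3, with 119 and 4 counts, had a ratio of -5.64. From TPM over protein-coding genes, with 0.5 added, it was -1.65, so the size for Runx3 is not settled.

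A 2-fold gap was thus met by 3 of the 5 members tested, all higher in replicate 1. Runx3 is among them only because its counts in replicate 1, where it is high, carry it over the minimum of 50, so its call follows from that minimum and Runx1 and Cbfa2t3 are left. Over all 12414 genes tested the share was 29.5%, with 13.2% higher in replicate 1 and 16.3% higher in replicate 2. Runx2 and Runx1t1 had under 50 counts and were not tested. The call for Runx1 and Cbfa2t3 lies close to 2-fold: under DESeq2 size factors the ratios were -0.84 and -0.98, and under TMM without an expression filter -0.83 and -0.97, which leaves Runx3 as the only member apart. Those scalings also move the median ratio of 9110 expressed protein-coding genes, from 0.05 to 0.29 and 0.30. Relative to that median, Runx1 stood at -1.14, -1.13 and -1.13 and Cbfa2t3 at -1.28, -1.27 and -1.27 under the 3 scalings. Cbfa2t2 at -0.15 turns to 0.10 and 0.11 under them.

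From high to low G and C content, the tested members ran from low to high ratio, except that Cbfa2t3 and Runx3 changed places. The part of base composition in this order was not tested. Cbfa2t3 has 60.1% G and C over its transcripts, Runx3 59.9%, Runx1 50.7%, Cbfa2t2 49.9% and Cbfb 49.4%. With the trend of the library ratio on G and C content removed, Cbfa2t3 stood at -0.94, short of 2-fold. Runx1 then stood at -1.02, Runx3 at -5.34, Cbfa2t2 at -0.14 and Cbfb at 0.45. The erythroid markers did not move together: Hba-a1, alpha globin, stood at 496 and 1683 TPM and Tfrc, the transferrin receptor, at 48.4 and 139 TPM, while Klf1 stood at 184 and 141 TPM and Ermap at 154 and 153 TPM. Read length, depth and the mix of short features also differ between the libraries, and their part in the ratios was not tested.

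**Figure D4:**
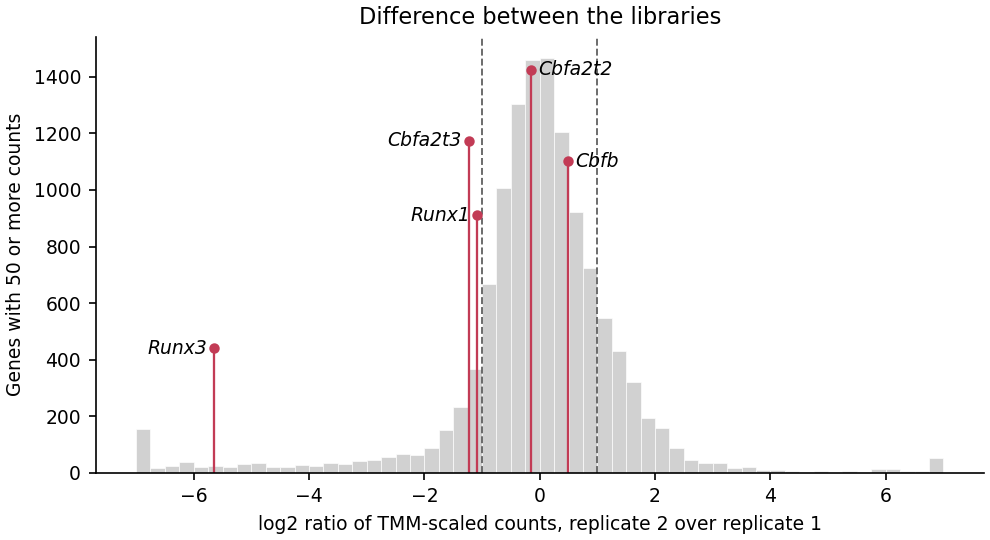
Grey bars count genes with 50 or more counts by their log2 ratio of TMM-scaled counts, replicate 2 over replicate 1, with values beyond 7 placed in the outermost bars; dashed lines mark 2-fold. Red lines stand at the ratios of the 5 tested members, and their heights carry no value. Runx3, Cbfa2t3 and Runx1 lie left of the lower 2-fold line.

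Genes whose levels were most like those of each expressed member were found by distance in log2(TPM + 1) over the 2 libraries, which says only that both values were close. Nearest to Runx1 were Wasf2, at 89.0 and 30.4 TPM, then Sms and Gm38393. Nearest to Cbfb were Casp6, at 25.3 and 30.7 TPM, Tbl1x and Zfp91. Cbfa2t2 stood beside Gna11, Zfp628 and C87436, and Cbfa2t3 beside Selenbp2, at 174 and 55.9 TPM, Asap1 and Drosha. Tbl1x, a subunit of the NCoR complex, is the one gene among these 12 that is also on a list of ETO partners.

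Genes that overlap the expressed members had few counts. Gm26626, antisense inside Runx1, had 3 counts in replicate 1 and 1 in replicate 2. Gm10612, antisense across the distal start of Cbfa2t3, had 64 and 54 counts beside 12468 and 9972 for Cbfa2t3. Supt3, a subunit of the SAGA coactivator, overlaps Runx2 on the other strand and stood at 14.5 and 10.5 TPM. The strand setting of the counting is not given in the sources used here. Runx2 and Supt3 reads may therefore not have been told apart where their exons overlap. Beyond the ends of Runx3 and Cbfb, Clic4 stood at 99.3 and 89.0 TPM and D230025D16Rik at 15.4 and 18.2 TPM. The neighbour of Runx3 was thus well above it in both libraries.

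The corepressors through which ETO proteins act were present. Of 10 listed genes of the NCoR, SIN3 and histone deacetylase complexes, 9 passed 1 TPM in each library. Among all protein-coding genes 42.5% did. The list's median was 48.5 TPM. The same median over all protein-coding genes was 0.365 TPM. By mean level the first were Gps2, an NCoR subunit, at 425 and 98.5 TPM, Ncor1, the corepressor itself, at 296 and 136 TPM and the scaffold Sin3a at 311 and 30.6 TPM. In replicate 2 the order differed, with Ncor1 first, then Sin3b at 111 TPM, and Sin3a below the deacetylases Hdac1, Hdac2 and Hdac3.

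Of 17 genes listed for the TAL1 complex in which ETO2 sits, 16 reached 1 TPM in both libraries, against 42.5% of all protein-coding genes. The list median was 95.6 TPM. Gata1, named in the label of the line, is counted among the 16 at 88.2 and 61.4 TPM, and its protein was not measured. Gfi1b, a repressor of erythroid and megakaryocyte cells, had 764 and 363 TPM. Tcf3, the E protein that pairs with TAL1, had 671 and 383 TPM and Gata2 626 and 326 TPM. All 3 were higher than Cbfa2t3 in both libraries. Fli1, a factor of megakaryocytes, did not pass, with 1.64 and 0.580 TPM.

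For RUNX proteins, 16 of 19 listed coactivators and modifying enzymes reached the threshold, with a median of 18.0 TPM. The share over all protein-coding genes was 42.5%. Carm1, an arginine methyltransferase, led at 162 and 72.7 TPM, ahead of the histone methyltransferase Suv39h1 at 60.5 and 43.9 TPM and the kinase Hipk1 at 59.7 and 39.5 TPM. Wwtr1, which encodes TAZ, and the kinase Src were at 0.250 TPM or less in both libraries. The Groucho family includes corepressors that bind the C-terminus of RUNX proteins, and binding by each listed member was not tested. Of its 6 listed genes, 4 passed, with Aes at 671 and 229 TPM, Tle3 at 88.1 and 27.5 TPM and Tle6 at 40.4 and 12.3 TPM. Tle1 stood at 0.460 and 0.0100 TPM.

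Known RUNX1 targets as a list did not stand apart from other genes. Of 24 listed genes, 9 passed 1 TPM in each library, where 42.5% of all protein-coding genes did, and the list's median was 0.358 TPM, near the 0.365 TPM of all protein-coding genes. Those expressed were Nfe2, at 423 and 125 TPM, Myb at 289 and 117 TPM, Kit at 191 and 140 TPM, Klf1, Spi1, Zbtb7b, Itga2b, Pf4 and Gp1ba, which act in progenitors, erythroid cells or megakaryocytes, apart from the myeloid and B cell factor Spi1 and the T cell factor Zbtb7b. The other 15 included the granulocyte and monocyte genes Mpo and Csf1r, the T cell genes Cd4 and Cd8a and the platelet gene Alox12. Cebpa and Elane had 0 counts in both libraries, where 3 counts, the limit that a count of 0 allows, equal 0.0948 and 0.0526 CPM.

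**Figure D5:**
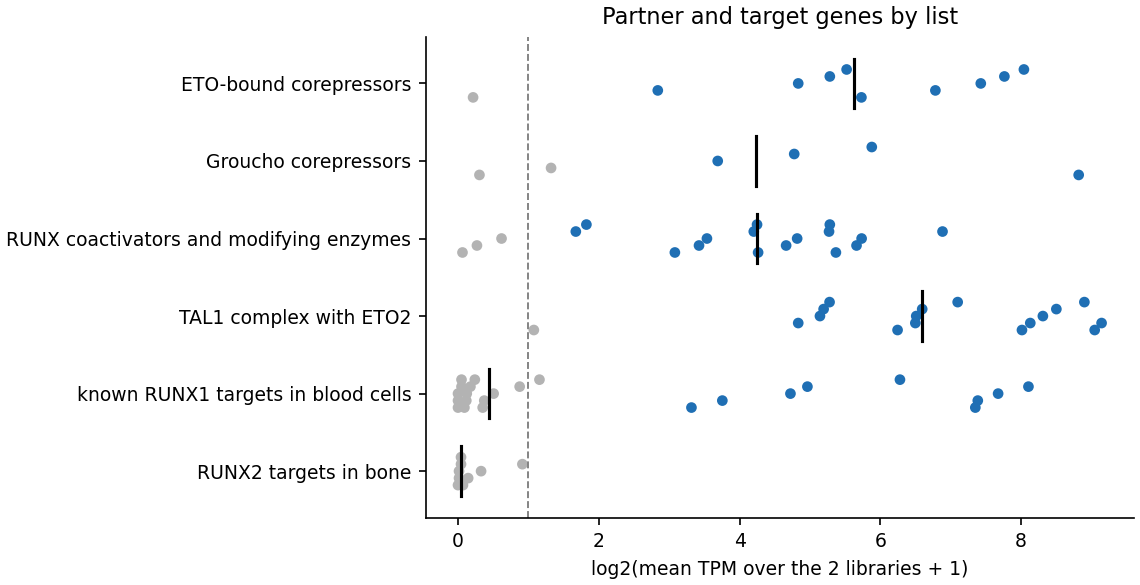
Each point is 1 gene of a partner or target list, placed by log2 of its mean TPM over 2 libraries plus 1; blue points reached 1 TPM in both libraries and grey points did not, black bars mark list medians, and the dashed line is at a mean of 1 TPM. Genes of the TAL1 complex lie farthest right, the RUNX1 targets split into a low and a high group, and all RUNX2 targets in bone lie below the line.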

How the data were processed

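Poly(A) RNA of G1E cells was measured in 2 libraries of 1 group, per the labels, so no test between groups was made. The deposited notes give assembly mm10, annotation release M4 and a derivation from transcriptome alignments; for the aligner, the quantifier and the strand setting, nothing is given in the sources used here. Expected counts are the estimated reads of each feature, deposited unnormalised, and were rounded before any count method. TPM values were deposited scaled to a fixed sum over all features, corrected for effective length; FPKM values were deposited beside them and used as an alternative. The deposited signal columns hold the bounds of a credibility interval of TPM, whose level is not stated. The percent column of the transcript tables is, per the file headers, each transcript's share of its gene's TPM.

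Genes and transcripts were matched to GENCODE M21 by identifier without version; 42462 of 43346 genes matched. Another 26345 entries, which name no annotated gene, held 0.0363% and 0.00942% of counts and were left out. Sequences came from the M21 transcripts and from RefSeq promoters on GRCm38.p6; 6 of the 7 genes, all but Runx1t1, matched there by symbol. Prmt1 of the lists found no match and was not analysed here, and some list genes are not reported by name. Scaling used edgeR 4.0.16 (TMM after its default expression filter, 12457 genes, factors 0.980 and 1.02) in R 4.3.3, with 0.5 added to each count, and DESeq2 1.42.0 size factors as an alternative. The ratio step was also run on simulated counts, which were not drawn with the spread seen between these libraries. That run does not bear on the 2-fold calls. Python 3.11.15, pandas 2.3.3, scipy 1.17.1, statsmodels 0.14.6 (lowess span 0.3) and matplotlib 3.10.9 were used. Words of 36 bases, the shorter read length, measured shared sequence.

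The members, lists and thresholds were chosen with earlier results of these data known. The text names the members and their transcripts of 5% or more in either library, overlapping and neighbouring genes, the 3 highest and up to 2 genes under 1 TPM of each list, and the 3 protein-coding genes nearest in level to each expressed member; other names and the transcripts below 5% were chosen after their values were seen.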

Additional observations from a re-analysis of the deposited data

How the results depend on the processing

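Over 12 results and 62 alternatives, 48 kept the direction or stayed within the allowed margin (1.5 times for counts, 1 SD for values), 5 kept the direction but fell short of 2-fold, 5 moved and 4 reversed. With 2 libraries, leaving 1 out shifts a mean by less than 1 SD whatever the data. For values, those alternatives could not leave the margin, so their place among the 48 shows no stability. The number of members 2-fold apart, 3, became 1 with DESeq2 size factors, 1 without the expression filter before TMM and 5 with a minimum of 10 counts, which adds Runx2 and Runx1t1; removing the trend on G and C content, chosen after seeing the data, gave 2. The Runx3 ratio of -5.64 became -1.65 on TPM over protein-coding genes. The Cbfa2t2 ratio of -0.15 reversed to 0.10 with DESeq2 size factors and 0.11 without the filter, both of which shift the median of all genes. The Runx1 share of RUNX TPM moved to 96.8% with the posterior mean, which lifts low genes. Cbfb over the RUNX sum reversed to 0.01 per nt of the longest transcript, also chosen after seeing the data, and lay at 0.03 and -1.80 without replicate 1 and without replicate 2. The distal share of Runx1 moved from 16.1% to 28.1% by expected counts, where long transcripts weigh more. Members expressed were 4 in every alternative except without replicate 2, which gave 6 by adding Runx2 and Runx3, and pairs past the bound ranged from 13 to 16. With 1 to 4 counts in replicate 2, depth does not order Runx2, Runx3 and Runx1t1 there. No paired analysis was possible because there is 1 group.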

Other observations

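The other members' promoter windows of 250 bases, from RefSeq on GRCm38.p6, were searched for the same letters on both strands. Runx3, at 1.32 and 0.120 TPM, holds the RUNX letters 2 times before its distal start, 134 to 129 and 126 to 121 bases upstream, both on the opposite strand and not overlapping. The window is shown with those letters in capitals, as ACCACA:
Runx3 distal, chr4:135120395-135120644, plus strand: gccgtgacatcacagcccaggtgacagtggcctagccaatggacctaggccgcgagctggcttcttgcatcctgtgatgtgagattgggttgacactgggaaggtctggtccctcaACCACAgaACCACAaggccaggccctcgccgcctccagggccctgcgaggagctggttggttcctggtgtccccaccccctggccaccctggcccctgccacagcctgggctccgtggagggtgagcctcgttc
The Runx2 window (chr17:44814628-44814877) holds them once, 80 to 75 bases upstream. No window of the expressed members Runx1, Cbfb, Cbfa2t2 and Cbfa2t3 holds them, where 14.0% of all windows do. Cbfb (chr8:105170424-105170673) and Cbfa2t2 (chr2:154436234-154436483) each hold 4 GC boxes, 2 of those of Cbfa2t2 overlapping by 1 base, and Cbfb holds GGAAGT once. Their windows have 69.2% and 78.4% G and C, with 25 and 41 CpG. A match describes letters and no site of binding.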
